A study of Drosophila melanogaster with 2 samples.

Results

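The X chromosome carried 619 of the 3201 peaks that Apterous, tagged with eGFP, gave in Drosophila melanogaster embryos. They were taken from the conservative thresholded peak list of the study by chromosome name alone, with no measured value in the choice. Of the 3201 peaks, 3184 lie on the assembled chromosomes, and the X peaks were set against the 579 peaks of 2L, 720 of 3L and 700 of 3R, 1999 in all. The samples are whole embryos aged 0 to 24 hours from transgenic flies that express an ap-eGFP fusion protein, immunoprecipitated with an antibody to GFP after sonication to 200 to 800 bp. There are 2 samples, labelled biological replicates 1 and 2, and they form 1 group that shares genotype, stage and antibody. The embryos mix all cell types, their sex was not collected, and no control immunoprecipitation was analysed here. Their sequencing depth is unknown, since the files hold peaks and no read counts. The scale of the signal is not stated, so levels are compared within a list, and values of different lists are given side by side.

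Apterous is a LIM homeodomain transcription factor that selects dorsal wing identity and acts in embryonic muscles and neurons. Male flies have a single X and females a pair, and in males the MSL complex, made of MSL proteins, the helicase Mle, the acetyltransferase Mof and the roX RNAs, raises transcription from the X. Sex itself is set early in the embryo by X-linked signal elements that switch on Sxl in females, and Sxl then blocks the msl-2 messenger. The comparison below asks whether the peaks of the X differ from those of large autosomal arms in number, place, sequence, strength and repeatability.

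The strongest X peaks give the sequences most directly behind the data. The letters below are the + strand of RefSeq release 6, whose chromosome lengths equal those of dm6, within 50 bp of the summit, the position that the deposited list gives as the highest point of the peak. For Ugalt the window was shortened so that no untranslated base is shown. Capitals mark the 14 letters shared by the CG32772 and Gapdh2 windows, and in norpA and NFAT the motif TAATTA, a core site of LIM homeodomain proteins.
Ugalt, chrX:2703853-2703933: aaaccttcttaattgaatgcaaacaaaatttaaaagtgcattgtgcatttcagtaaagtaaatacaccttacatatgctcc
ph-p, chrX:2137313-2137413: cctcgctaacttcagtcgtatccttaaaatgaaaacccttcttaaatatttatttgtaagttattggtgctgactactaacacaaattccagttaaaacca
Tlk, chrX:3742171-3742271: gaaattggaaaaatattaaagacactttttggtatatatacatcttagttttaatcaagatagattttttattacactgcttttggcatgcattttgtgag
CG32772, chrX:4910307-4910407: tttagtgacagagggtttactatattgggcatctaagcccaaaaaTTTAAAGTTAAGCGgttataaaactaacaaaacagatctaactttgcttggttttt
Gapdh2, chrX:15867933-15868033: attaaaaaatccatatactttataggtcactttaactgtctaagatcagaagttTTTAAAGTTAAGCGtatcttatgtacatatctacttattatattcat
norpA, chrX:4324933-4325033: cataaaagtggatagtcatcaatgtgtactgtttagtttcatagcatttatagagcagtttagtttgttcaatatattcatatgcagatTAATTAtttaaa
NFAT, chrX:13640466-13640566: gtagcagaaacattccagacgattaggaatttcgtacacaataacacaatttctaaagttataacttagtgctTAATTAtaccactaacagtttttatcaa

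These 7 windows belong to 7 of the 15 strongest X peaks, and A and T make up most of each. Over the 15 windows the G and C content was 31.6% ± 6.09 (SD across peaks, n = 15), against 42.5% over the whole X. TAATTA occurred in 2 of the 15. The shared stretch TTTAAAGTTAAGCG was the longest common to any pair of the 15 windows, read on either strand. Among all windows it occurred at 2 X summits, the pair from which it was taken, and at 0 summits of the other arms. Because of that choice the counts give no comparison of X with the arms. How often such a match arises between windows rich in A and T was not tested.

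The strongest X peak lay 31 bp upstream of a start site of Ugalt, which encodes a UDP-galactose transporter. Its signal, the deposited peak strength, was 729.8 in replicate 1 and 799 in replicate 2, a mean of 764 ± 48.8 (SD, n = 2), and 1522 in the pooled list. It was also the strongest peak on X, 2L, 3L and 3R together. The second lay in an intron of ph-p, a Polycomb group gene, with 522 in replicate 1, 573 in replicate 2 and 1091 pooled. The third lay in an intron of Tlk, which encodes a chromatin-associated kinase, with 389 in replicate 1, 467 in replicate 2 and 862 pooled. In both replicates the order of these 3 peaks was that of the pooled list. The gene ph-p has a tandem copy, ph-d, and no source used here says how reads matching both copies were placed.

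The other 12 of the 15 had pooled signals of 459.9 to 711. They were nearest to the uncharacterised genes CG32772 and CG3726, to CG4004 with 2 peaks, to MFS10, a transporter of the major facilitator family, and to Gapdh2, a glycolytic enzyme. Others were nearest to norpA, the phospholipase C of phototransduction, TRAM, LPCAT, a phospholipid acyltransferase, NFAT, a transcription factor, and Raf, a kinase of the MAP kinase cascade. Both CG4004 peaks lay over 5 kb from the nearest start of that gene, at 5094 and 6036 bp. Each was within 500 bp of the start of a non-coding gene. Of the 15 peaks 9 were intronic, 6 were at promoters and 0 were intergenic. All 15 overlapped thresholded peaks of both replicates, and their log2 values of replicate 2 over replicate 1 lay between -0.45 and 0.36, with 9 of the 15 higher in replicate 2.

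By number, X held 26.3 peaks per Mb, against 24.6 on 2L, 25.6 on 3L and 21.8 on 3R. On its share of the length of these 4 arms, 22.0%, 575 X peaks would be expected and 619 were found. The density was 1.10 times that of the 3 arms together (95% interval 1.00 to 1.21, two-sided exact binomial test, p = 0.0377). Arm by arm, the difference was past the threshold against 3R alone (ratio 1.20, exact binomial test, adjusted p = 0.00223). In the same exact test the ratio was 1.07 against 2L (adjusted p = 0.39) and 1.03 against 3L (adjusted p = 0.641). With the less strict pooled list the ratio to the 3 arms was 1.06 (exact binomial test, p = 0.171). These tests, and those that follow, take peaks as independent, which peaks that lie side by side are not. The lengths include sparse stretches next to the centromere, which were not corrected for. From 80% to 85% of the way from the telomere, 3L held 4.98 peaks per Mb and X 24.6. In the last 5% X held 3.40 per Mb, and 2L, 3L and 3R held 0, 0.711 and 0.

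The ranked lists hold all candidate peaks, most of which did not pass the threshold, and 2.3% of the candidates on these 4 arms were in the conservative list. On X the share called was 2.52% of 24527 candidates, and on the 3 arms 2.24% (odds ratio 1.13, two-sided Fisher's exact test, p = 0.0101). The arms themselves ran from 1.98% on 3R to 2.51% on 3L, so X lay beside 3L. X held fewer candidates per Mb than the 3 arms in each replicate's own list, 0.874 times in replicate 1 and 0.906 times in replicate 2. In the pooled list the ratio was 0.978.

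The clearest difference was in place. Summits up to 500 bp from the start of any gene were classed as promoter, and the others as exon, intron or intergenic. Introns held 317 of the 619 X summits, 51.2% (95% exact interval 47.2 to 55.2), against 34.4% on 2L, 35.8% on 3L and 39.0% on 3R. The odds were 1.82 times those of the 3 arms together (two-sided Fisher's exact test, p = 4.38e-10 adjusted over the 4 classes). Intergenic summits were rarer, with 52 or 8.40% on X against 20.4% on 2L, 21.1% on 3L and 12.4% on 3R (odds ratio 0.422, exact test, adjusted p = 5.91e-09). Promoters held 225 or 36.3% on X against 42.5%, 39.4% and 45.4% in the same order (odds ratio 0.775, exact test, adjusted p = 0.0102). Other exons held 4.04% on X and 3.20% on the arms (exact test, adjusted p = 0.311).

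Taken one arm at a time, the intronic share was higher on X than on each of them, with odds ratios of 2.00 to 2L, 1.88 to 3L and 1.64 to 3R (Fisher's exact test, largest adjusted p = 9.01e-06). The intergenic share was lower than on each, with odds ratios of 0.358, 0.343 and 0.646 (exact test, largest adjusted p = 0.0193). In the exact test the promoter share was lower than on 2L (adjusted p = 0.0496) and 3R (adjusted p = 0.00281). Against 3L the exact test of the promoter share gave an adjusted p of 0.259.

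**Figure D1:**
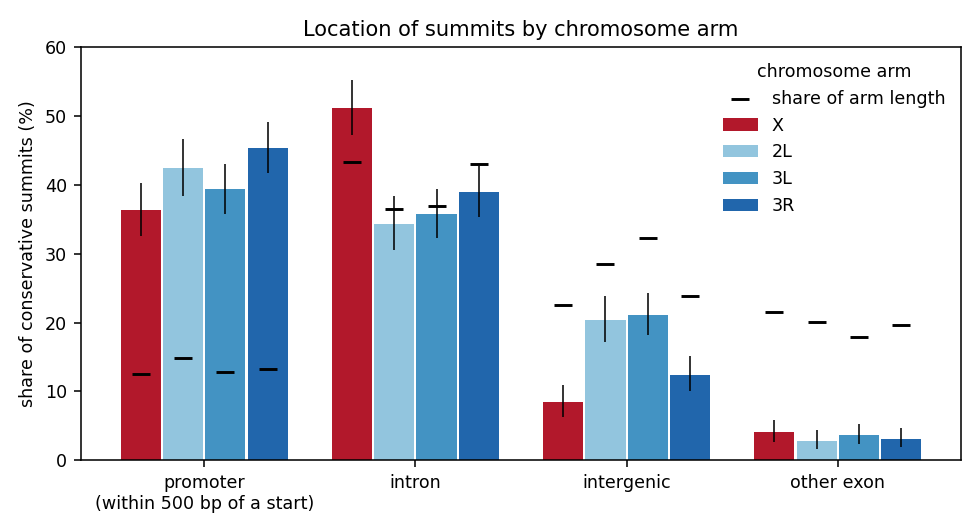
Share of conservative summits (%) in each location class for X and the autosomal arms 2L, 3L and 3R, as bars from 0 with 95% exact binomial intervals, which cover counting error only, and black ticks for the share of each arm's length in that class. The X bar is the highest of the 4 for introns, at 51.2%, and the lowest for intergenic summits, at 8.40%.

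The amount of intron and the length of genes also differ between the chromosomes. Introns made up 43.3% of X and 39.2% of the 3 arms, from 36.5% on 2L to 43.1% on 3R. The median protein-coding gene spanned 2521 bp on X and 2080 bp on the arms. Gene length was not adjusted for, and its part was not tested. Per Mb of intron, X held 31.1 summits, against 23.2 on 2L, 24.8 on 3L and 19.7 on 3R, 1.40 times the arms together (two-sided exact binomial test, adjusted p = 5.15e-06). Of the intronic candidates 2.91% were called on X and 2.14% on the arms (Fisher's exact test, adjusted p = 3.31e-05). Per Mb of promoter window X held 75.8 summits and the arms 74.7, a ratio of 1.02 (exact test, adjusted p = 0.851). Per Mb of intergenic DNA the ratio was 0.643 (exact test, adjusted p = 0.00434), with 9.79 on X, 11.3 on 3R and 16.7 and 17.6 on 3L and 2L. The called share of intergenic candidates, 1.09% against 1.51%, gave an adjusted p of 0.0646 in the exact test, and 3R at 1.04% was lower than X. The comparisons within a class were chosen after the location shares were seen.

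The intronic X peaks were described further by strength and distance. Their median signal was 96.4, against 88.6 for the intronic peaks of the arms, while promoter peaks had 109 and 110 and intergenic peaks 74.1 and 81.3 in the same order. The median distance from an intronic X summit to the nearest start of a protein-coding gene was 2673 bp (quartiles 1302 and 6682), and 3128 bp on the arms. Distances above 5 kb made up 31.9% of them on X and 36.8% on the arms, and distances above 20 kb 7.89% and 5.48%. Signals and distances are described here with no test, because peaks are not replicates.

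In sequence, no motif separated the X peaks from the others past the threshold. TAATTA was found on either strand within 50 bp of 66 X summits, 10.7%, against 12.3% on 2L, 11.0% on 3L and 11.9% on 3R (odds ratio 0.905, Fisher's exact test, p = 0.894 adjusted over 9 motifs). In windows of the same length 1000 bp to the right of the summits the shares were 4.52% on X and 5.90% on the arms. TAATTA stood at 11.4% of the intronic, 11.6% of the promoter and 5.77% of the intergenic X summits. None of the 9 motifs passed the adjusted Fisher test. The run AAAAAAAA had the lowest p, 10.2% on X and 7.45% on the arms (exact test, p = 0.0348, adjusted p = 0.313), and beside the peaks it was also more frequent on X, 9.85% against 5.15%. GAGAGAGA, a repeat of the kind that roX and MSL entry sites carry, was found at 1 X summit, 0.162%, and in 13 of the windows beside the X peaks, 2.10%. On the arms it was found at 6 summits, 0.300%, and in 20 of the windows beside them, 1.00%. Both X and the arms had their lowest G and C content at the summit, 31.8% and 32.4%, with 43.9% and 43.0% at 200 bp to its right.

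X ranked differently among called peaks and among all candidates. The median signal of conservative X peaks was 98.5 (quartiles 70.8 and 147), against 97.8 on 2L, 90.2 on 3L and 90.8 on 3R. Among candidates of the pooled list the X median was 16.2, and 18.4, 18.2 and 17.9 on the arms. X was the lowest of the 4 arms there and in both replicates' candidates, at 0.892 times the arms in the pooled list, 0.927 in replicate 1 and 0.905 in replicate 2. In the replicates' thresholded lists the ratios were 1.01 and 0.994, within the range of the arms. The number of X copies in the sampled nuclei was not given, and its part in these values was not tested.

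**Figure D2:**
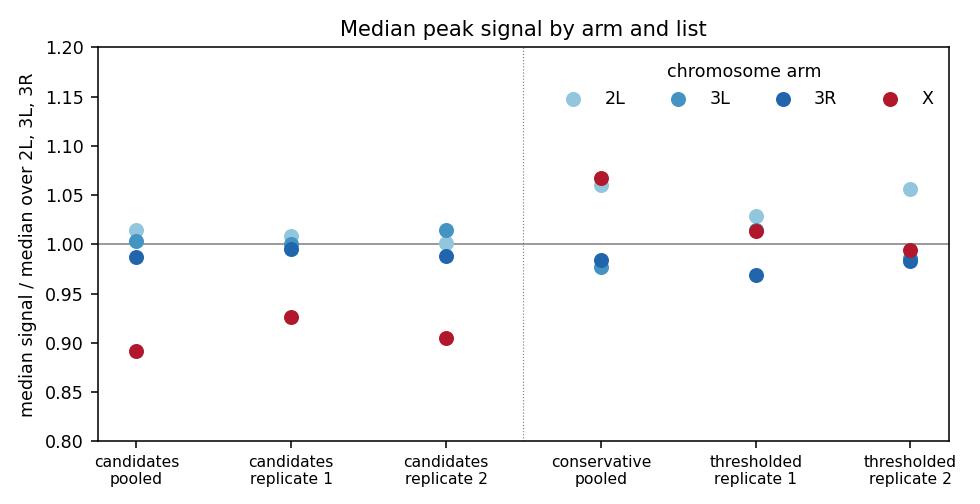
Median peak signal of X, 2L, 3L and 3R divided by the median over 2L, 3L and 3R (vertical axis, a ratio that does not start at 0), for candidate peaks on the left and called peaks on the right. The X points lie at 0.892, 0.927 and 0.905 among candidates, below every autosomal arm, and at 1.07, 1.01 and 0.994 among called peaks.

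The share of peaks found in both replicates did not differ from the arms past the threshold. Of the X peaks 317, 51.2%, overlapped thresholded peaks of both replicates, against 50.6% on 2L, 45.7% on 3L and 47.4% on 3R (odds ratio to the arms together 1.15, Fisher's exact test, p = 0.141). A further 9.37% overlapped a peak of replicate 1 only, 14.4% of replicate 2 only and 25.04% of neither. The median log2 ratio of replicate 2 to replicate 1 was 0.03 on X and 0.04 on the arms, and 97.9% of 609 X peaks with a value in both were within 2-fold, against 97.8% on the arms. Across these 609 peaks, which share both libraries, Spearman's rho between the replicates was 0.785, and 0.786 on the arms. The conservative list was itself selected for agreement between replicates, so closeness of the 2 values is partly set by that selection. Of the X peaks without both values, 9 overlapped no candidate of replicate 1 and 1 overlapped none of replicate 2. Among the 609 the least alike was a promoter peak of CG12118, with 85.1 in replicate 1 and 23.8 in replicate 2. An intronic peak nearest to unc-119 was the most extreme the other way, with 28.6 in replicate 1 and 68.1 in replicate 2.

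**Figure D3:**
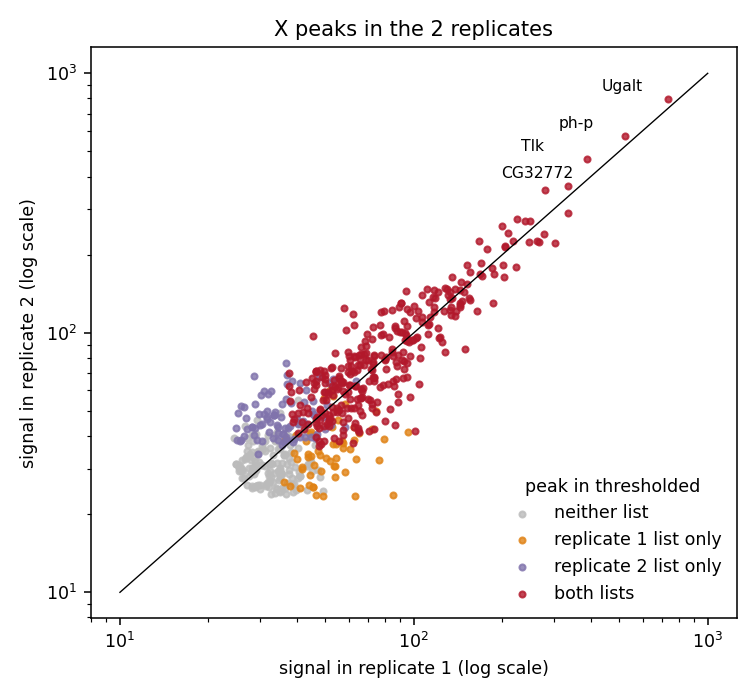
Signal in replicate 1 and replicate 2 of each X peak with a value in both. Both axes are on log scales, colours give the thresholded lists that hold the peak, and the line marks equal signal. Ugalt, ph-p, Tlk and CG32772 lie close to the line at the top, and 97.9% of 609 peaks lie within 2-fold of it.

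Along the chromosome X peaks were uneven. The bounds of the stretches that follow were chosen after the counts were seen. The stretch from 2 to 4 Mb held 91 peaks and that from 6 to 9 Mb held 136, which is 45.5 and 45.3 per Mb, and 14.7% and 22.0% of the X peaks. From 9 to 20 Mb there were 26.3 per Mb, and from 20 Mb to the end, next to the centromere, 7.34 per Mb. Candidates varied less, with 1142, 1136, 1076 and 729 per Mb in the same order, and the shares called were 3.98%, 3.99%, 2.44% and 1.01%. In bins of 5% of the arm, X density ran from 3.40 to 51.8 per Mb with a coefficient of variation of 0.479, inside the range of 0.451 to 0.593 on the other arms.

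**Figure D4:**
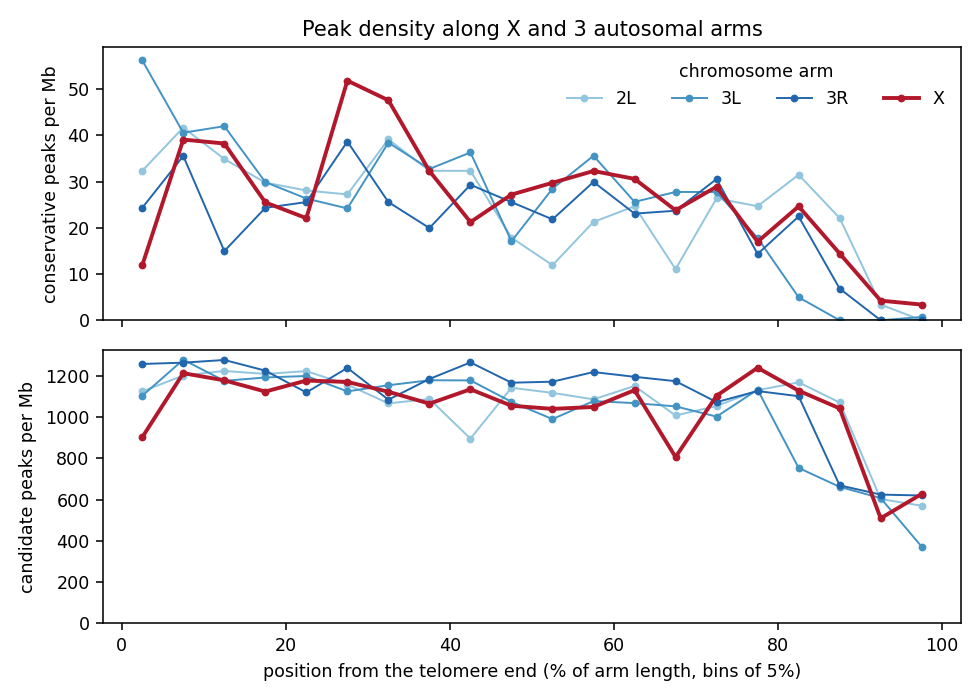
Conservative peaks per Mb (top) and candidate peaks per Mb (bottom) in bins of 5% of the arm length, from the telomere end at 0% to the centromere end at 100%, for X and the autosomal arms 2L, 3L and 3R. The X line peaks at 51.8 per Mb between 25% and 30% and falls to 3.40 per Mb in the last bin.

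Clusters, defined as 4 or more summits each within 10 kb of the next, numbered 31 on X and held 163 of its peaks, 26.3%. The shares on the arms were 21.1% on 2L, 22.5% on 3L and 21.3% on 3R. The size depended on the definition, from 15.02% with a gap of 5 kb to 45.2% with 20 kb, and with 20 kb the share on 3L, 46.5%, was above that of X. Clustered X summits were intronic in 60.7% of cases and other X summits in 47.8%. Without any clustered peak on the 4 arms, the intronic share was 13.2 points higher on X (Fisher's exact test, adjusted p = 1.64e-06).

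The cluster with most summits lay in CHES-1-like, a forkhead transcription factor gene, with 13 summits over 17554 bp. The next lay in Raf and beside CG2865, with 10 summits over 12864 bp. The windows of their strongest summits are shown because these clusters carry the most peaks of the chromosome, and neither holds TAATTA, so no letters are in capitals.
CHES-1-like, chrX:7706960-7707060: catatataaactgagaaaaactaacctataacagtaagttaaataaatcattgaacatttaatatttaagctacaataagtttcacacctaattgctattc
Raf, chrX:2297667-2297767: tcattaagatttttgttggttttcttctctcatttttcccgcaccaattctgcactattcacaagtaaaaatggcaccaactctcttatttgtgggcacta

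In CHES-1-like the strongest peak had 218 in replicate 1 and 225 in replicate 2, and 442 pooled. A second strong peak had 202.9 in replicate 1 and 164 in replicate 2, and 375 pooled. The other 11 peaks ran from 53.4 to 194 in the pooled list, so the cluster is a pair of strong peaks among weaker ones. Of its 13 summits 11 were intronic and 2 at promoters, 5 were in both replicates' thresholded lists and 2 in neither. In Raf the strongest peak had 200.2 in replicate 1 and 257 in replicate 2, and 459.9 pooled. The next had 204 in replicate 1 and 217 in replicate 2, and 419 pooled. Here too a pair stood above the rest, which ran from 29.1 to 159.7 in the pooled list.

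The other 8 of the 10 clusters with most summits held 5 to 8. One with 8 lay by CG2059, unc-119 and brk, a repressor of Dpp target genes, with 3 neighbouring peaks of 166 to 182. Another with 8 lay by Tmf, CG4558, CG14434 and CG43736, where all 8 summits were in both replicates' lists and signals ran from 96.7 to 163. The cluster of 7 by CG4004 and Paics, a purine synthesis gene, held 2 of the 15 strongest peaks. Clusters of 6 lay by Atg5, CBP (a different gene from nej, the CBP acetyltransferase) and Dok, by NetA, a netrin, and sbm, and by RhoGAP19D, CG1812 and Tak1. In the last, no summit was in both replicates' lists and the strongest peak reached 84.4. There were 7 clusters of 5, and the 2 with the strongest peaks, 1091 and 394, complete the 10. They lay in ph-p and by Mgstl, Stt3A, Cbs and bves.

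**Figure D5:**
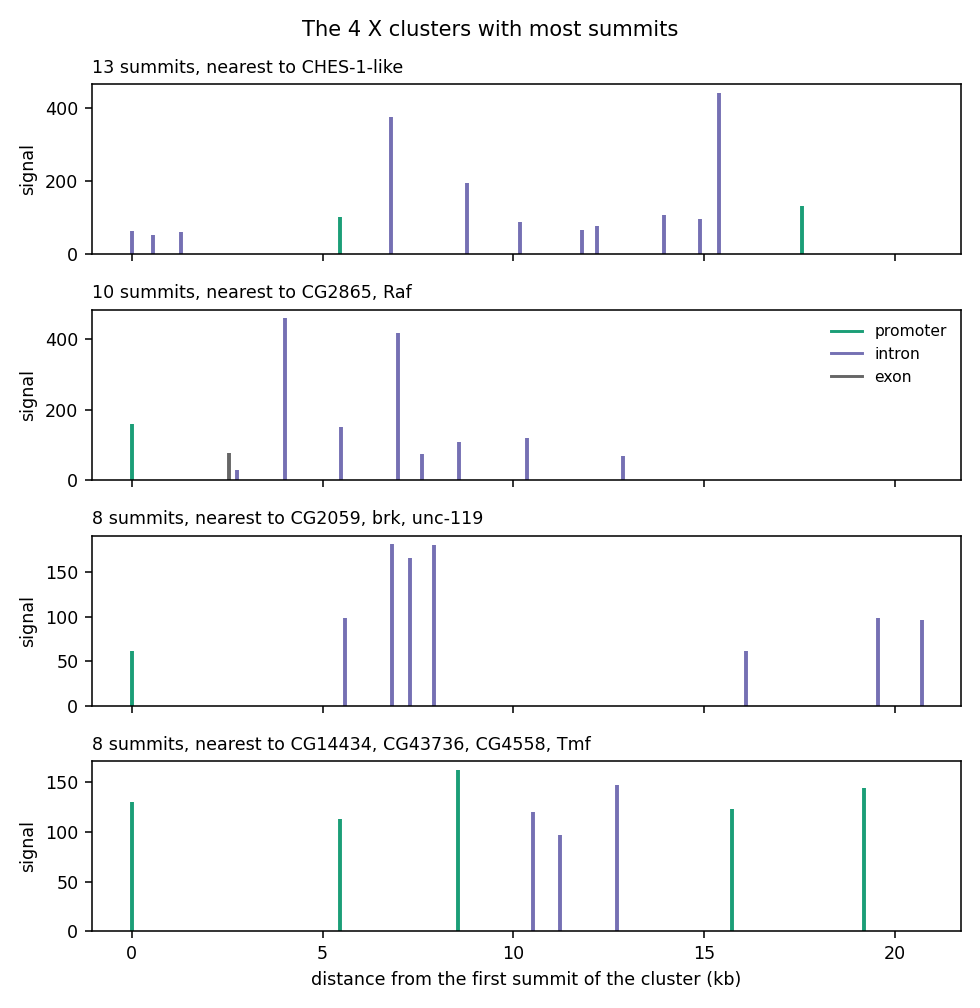
Pooled signal of each summit (vertical bars from 0, coloured by location class) against its distance in kb from the first summit of the cluster, for the 4 X clusters with most summits. In the CHES-1-like and Raf panels 2 summits stand above 370 each, and in the panel of CG14434 and its neighbours all 8 lie between 96.7 and 163.

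By gene, 399 of the 2196 protein-coding genes of X, 18.2%, were nearest to at least 1 peak, and 15.8% on the 3 arms. Genes nearest to 5 or more peaks numbered 10 and held 73 peaks. They were CHES-1-like with 13, kirre, an adhesion gene of myoblast fusion, with 10, Raf with 9, Tlk and the phosphodiesterase gene dnc with 7 each, the nuclear receptor gene Hr4 and CG43658 with 6 each, and ph-p, NFAT and CG42258 with 5 each. These counts are not scaled to gene length, which is 394149 bp for kirre, 167328 bp for dnc and 27048 bp for CHES-1-like. The strongest peaks of the 10 genes ran from 114.9 at CG43658 to 1091 at ph-p. All 10 kirre peaks were intronic. The strongest had 57.9 in replicate 1 and 124.5 in replicate 2, more than 2-fold apart, and 177 pooled.

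Of the 8 protein-coding genes of the dosage compensation list 2 were nearest to a peak, both on 3L. The count is given beside 18.2% of all coding genes on X and 15.8% on the 3 arms, with no test. JIL-1, a histone H3 kinase, had 174 in replicate 1 and 212 in replicate 2 at an intronic peak of 393 pooled. A second JIL-1 peak had 60.7. Unr encodes an RNA-binding protein that acts with Sxl on the msl-2 messenger. At a promoter peak of 127 pooled it had 43.0 in replicate 1 and 74.1 in replicate 2. A second Unr peak, of 71.2, was in neither replicate's thresholded list. No peak was nearest to msl-1, msl-2, msl-3, mle, mof or Clamp, which encodes a protein that binds GA-rich sites. Their best candidates within 2000 bp of the gene reached 34.7, 45.1, 31.1, 56.4, 38.6 and 23.7, in the order named, and none of these was called.

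On X itself, 1 conservative peak lay within 2000 bp of roX2, which encodes an RNA of the MSL complex. It had 41.5 in replicate 1 and 45.2 in replicate 2, and 88.8 pooled, and it was in both thresholded lists. Its summit lay past the 3′ end of roX2, 1397 bp from the roX2 start and 310 bp from that of nod, a kinesin-like gene, which was the nearest coding gene. At roX1 the best of 8 candidates reached 25.02 and none was called. The window of this summit is shown with that of the stronger Sxl peak, as examples of X peaks by genes of this pathway. Neither holds TAATTA or GAGAGAGA.
Sxl, chrX:7095700-7095800: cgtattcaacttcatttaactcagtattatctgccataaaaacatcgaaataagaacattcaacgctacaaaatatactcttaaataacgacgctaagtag
roX2 locus, chrX:11580412-11580512: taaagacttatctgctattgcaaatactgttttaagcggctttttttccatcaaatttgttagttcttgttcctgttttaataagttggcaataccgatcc

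Of the 19 genes of sex determination 6 were nearest to a peak, and of the 6 members that lie on X these were Sxl and upd1. These counts too stand beside 18.2% of coding genes on X and 15.8% on the 3 arms, with no test. Neither share covers 2R, where dpn, vir, fl(2)d, nito, tra2 and ix lie. Sxl, the switch gene, had 59.0 in replicate 1 and 102 in replicate 2 at an intronic peak of 162 pooled, and 39.3 and 30.4 at a promoter peak of 70.7 that neither replicate's list held. The gene upd1, an X signal element, had 59.7 in replicate 1 and 59.3 in replicate 2 at an intergenic peak of 119.6 pooled, 14011 bp from its start. The X signal elements sisA, sc and run, and the splicing gene snf, were nearest to none. On the autosomes the corepressor gene gro had the highest, with 146 in replicate 1 and 207 in replicate 2 and 355 pooled. The strongest nearest peaks of fl(2)d, dsx and fru had 70.6, 51.8 and 75.3. That of fru was in both replicates' thresholded lists, that of fl(2)d in the list of replicate 1 only and that of dsx in neither. A promoter peak 177 bp upstream of a start of fl(2)d was nearer to that of CG13339, and had 73.0 in replicate 1 and 65.3 in replicate 2 and 146 pooled. A peak within 2000 bp of tra and another by emc were also nearest to other genes. None was nearest to da, dpn, her, vir, nito, tra2 or ix.

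The other lists cover X-linked genes by role, and their shares with a peak are read beside the 18.2% of all X coding genes, with no test. Here a gene has a peak where its start is the coding start nearest to a summit. A peak inside a gene but nearer to another start is not counted for it. Of 28 pattern and fate factors 9 had a peak, led by CHES-1-like, Hr4 at 353, Bx at 171, ovo at 111, oc at 98.2 and ct at 88.5. Bx encodes a LIM-only protein known to limit Apterous activity in the wing, and its intronic peak had 94.6 in replicate 1 and 76.4 in replicate 2. Of 20 signalling genes 8 had a peak, and 5 without replicate 1. They were led by Raf, sgg, the GSK3 kinase, at 292, kirre at 177, sog, a BMP antagonist, at 164, if, an integrin, at 106 and fog at 96.3. Of 14 neuronal genes 4 had a peak by this rule, norpA at 501, the RNA-binding protein gene elav at 361, dnc at 298 and fne at 95.6. An intronic peak of 235 inside mnb, also on this list, was nearest to the start of another gene.

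Of 11 chromatin genes 6 had a peak, 54.5%. Those 6 spanned 7560 to 69764 bp and the others 2238 to 11822 bp, against a median of 2521 bp for X coding genes. Gene length was not adjusted for in the shares of any list. Besides ph-p and Tlk the 6 were nej, the CBP acetyltransferase, at 220.4, ph-d at 182, Smr, a corepressor, at 103 and fs(1)h, a bromodomain protein, at 76.2. The strongest peak of nej had 94.8 in replicate 1 and 124 in replicate 2, and that of ph-d 62.8 and 107. The members of each list were chosen with earlier results of these peaks known.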

How the data were processed

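The 2 samples are ChIP-seq libraries of 1 group. Per the labels, the deposited peak lists come from ENCODE's uniform processing on dm6. Not given in the sources used here were aligner, peak caller and versions. The signal column is the authors' strength of each peak, and the authors' score column, a scaled irreproducible discovery rate, is at least 830 in the conservative list. Both are the authors' values per peak and were used to describe, rank or filter peaks within a list. In each pooled ranked list, 8 columns of values per read set were not used, since nothing says which replicate they belong to. For a pooled peak, the value of a replicate is the top signal of the ranked peaks of that replicate overlapping it, so overlapping pooled peaks can share a value. The 619 X peaks form 606 regions when overlapping ones are merged, and the 13 with signal under 30 all overlap a stronger one.

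Genes, start sites and location classes came from Ensembl release 115 of the same assembly, and sequence from RefSeq release 6. Each summit was given to the protein-coding gene with the nearest start. The 17 peaks on unplaced X scaffolds were left out of comparisons. Shares were compared with two-sided Fisher's exact tests and densities with exact binomial tests, 24 in all, with Benjamini-Hochberg adjustment within the classes and motifs, and 15 more for X against each arm, adjusted over the 3 arms. Intervals are exact (Clopper-Pearson), at 95%, and cover counting error only. With 1 group, no comparison between conditions was possible.

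The members, gene lists, motifs and tests were chosen with earlier results of these data known. The genes named are those nearest to the 15 strongest X peaks, those of the 10 largest X clusters, X genes nearest to 5 or more peaks, every gene of the dosage compensation and sex determination lists, and from each other list at most 6 genes with a peak, those of highest signal. One gene that this rule names is not reported here. CG12118 and mnb were named after their values were seen. Of 103 list entries 1 had no match. The test functions were tested on simulated data. Python 3.11.15, numpy 2.4.6, pandas 2.3.3, scipy 1.17.1 and matplotlib 3.10.9 were used. The alternatives tried were other peak lists, the stronger 50% of the peaks, each replicate's list alone, merged peaks, and other windows, gaps and gene sets.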

Additional observations from a re-analysis of the deposited data

Results flagged for a closer look

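Outside the assembled chromosomes, the conservative list held 17 peaks, and all 17 lay on unplaced scaffolds assigned to X, on 17 different scaffolds. They drew attention because no comparison of the report uses them. Their signals ran from 63.0 to 285 with a median of 91.6. They were 2.42% of the 702 candidates on X scaffolds, close to the 2.28% called on the assembled chromosomes. The 311 candidates on Y scaffolds and 1488 on unmapped scaffolds gave 0 conservative peaks, where median candidate signals were 10.2 and 10.7, against 14.8 on X scaffolds. The replicates' own thresholded lists held 7 such peaks in replicate 1 and 38 in replicate 2. Whether reads on these scaffolds also match the assembled X was not tested.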

How the results depend on the processing

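Of 63 alternative values for the main comparisons, 49 kept their direction and their side of the threshold, or moved by less than the spread set for them. The higher intronic share of X and its lower intergenic and promoter shares did so under every alternative run for them. With the less strict pooled list the density ratio was 1.06 (exact test, p = 0.171), the difference in agreement of both replicates rose to 4.75 points (exact test, p = 0.0399), and the ratio of median signals was 1.09. With the stronger 50% of the peaks that ratio was 0.975, the difference in log2 ratio of the replicates was -0.034 and the clustered share was 12.8%. With 1 replicate's own list, the difference in TAATTA share ran from -0.826 to 0.0687 points, reversed without replicate 2, the ratio of median signals from 0.994 to 1.01, and the clustered share from 15.2% to 15.7%. The clustered share was 15.02% with a gap of 5 kb, 45.2% with 20 kb and 41.4% with 3 or more summits. Of 21 counts of peaks or genes, 20 stayed within 1.5 times, and signalling genes with a peak fell to 5 from 8 without replicate 1. The cause of these moves was not tested. No paired analysis was possible because the 2 samples form 1 group. Without read totals, peaks that were not called cannot be told from peaks too weak for the depth.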

Other observations

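Several X genes outside the named lists were nearest to 4 peaks each, and they were picked after their values were seen. Moe, the fly moesin that links actin to the membrane, had pooled signals of 104 to 260.4, with 134 in replicate 1 and 126 in replicate 2 at the strongest, and 3 of its 4 summits were at promoters. Myc, a growth regulator, had 69.9 to 116, with 56.7 in replicate 1 and 65.3 in replicate 2 at the strongest, and 3 of its 4 summits were intronic. Mnt, which encodes a partner of the same Max protein, also had 4, with a strongest signal of 85.4. The polarity genes dlg1 and sdt had 4 each, with strongest signals of 141 and 70.8.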
